A study of Mus musculus with 24 samples.

Results

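The comparison described here is OX40L-JAG1 treatment in follicular regulatory T (TFR) cells, chosen by the labels as the 3 libraries of treated TFR cells against the 3 libraries of control TFR cells, 6 of the 24 libraries of the series. All mice were NZBWF1/j females, F1 hybrids known for spontaneous lupus-like autoimmunity, and were 23 weeks old at the start. The treated animals were given recombinant mouse OX40L together with mouse JAG1, both at 2 mg/kg, in 3 weekly intraperitoneal injections, while controls matched for age and sex were given PBS. At week 26, TFR cells were sorted as CD4+, CXCR5+, PD1-high and GITR-high. The other 18 libraries hold conventional T (Tconv), regulatory T (Treg) and follicular helper T (TFH) cells of the same treatments and are used only to set the effect in TFR cells against that in other subsets. The labels do not tie each library to its own mouse, and the spread on which p-values rest is that between libraries, which may be technical. Treatment cannot be told apart from handling or sequencing batch.

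TFR cells are Foxp3-positive regulatory cells that enter the B cell follicle through CXCR5 and restrain TFH cells and germinal centre B cells. Their identity rests on the transcription factors FOXP3, BCL6 and BLIMP1 (Prdm1), the last of which opposes BCL6. OX40L is the ligand of OX40 (Tnfrsf4), a costimulatory receptor that signals through TRAF proteins to NF-kB, and JAG1 binds Notch receptors, whose cleaved intracellular part acts with RBPJ on target genes.

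Expression is given in CPM, read counts scaled to a common library size after TMM correction. A log2 fold change is treated minus control, given with its standard error, and a gene is called where edgeR's quasi-likelihood test gave a Benjamini-Hochberg adjusted p under 0.05 over the 18789 genes tested of 39056 in the table. In the sentences below the 3 values of a group are in the order of the library numbers, which carry no order of their own.

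The labels were checked against Foxp3, which marks regulatory cells but was not part of the sort, and against genes of the sort. Foxp3 stood at 354 ± 39.6 CPM (SD, n = 3) in control TFR and 561 ± 54.1 CPM in treated TFR libraries, against 47.3 ± 18.9 CPM in control TFH and 5.81 ± 1.32 CPM in control Tconv libraries. Cxcr5 was at 53.7 ± 13.6 and 136 ± 9.93 CPM in control and treated TFR libraries, against 16.3 ± 1.62 CPM in control Treg libraries. Pdcd1, the gene of PD1, was at 369 ± 47.8 CPM in control and 142 ± 13.7 CPM in treated TFR libraries. The treated TFR level lay below that of control Treg libraries (222 ± 20.1 CPM), which were not sorted on PD1, and near that of treated TFH libraries (146 ± 8.12 CPM). Within each treatment, Pdcd1 was higher in TFR than in Treg libraries, which were at 72.0 ± 6.24 CPM after treatment. Cd8a, the CD8 T cell marker, was at 0 in all 6 TFR libraries.

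Depth and makeup differed between the groups. Treated TFR libraries held 35368089 to 50915959 counts and control TFR libraries 4848261 to 9622781. Reduced to a common depth, the treated libraries had a read in 17817 ± 1071 genes and the control libraries in 12578 ± 629. The share of counts from mitochondrially encoded genes was 2.52 ± 0.0451% for treated and 10.6 ± 0.663% for control libraries. Treated TFR 1 held kidney transcripts: podocyte markers summed to 718 CPM there and to 7.95 to 27.4 CPM in the other 5 TFR libraries, and proximal tubule markers to 300 CPM there and to at most 8.04 CPM elsewhere. None of the 13 podocyte and 14 proximal tubule markers tested was called.

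Treatment was followed by higher levels of more genes than lower ones. In all, 2934 of 18789 genes (15.6%) were called higher and 1200 (6.39%) were called lower in treated TFR cells. Counts of called members in the gene lists below are to be set against these shares. Of the genes called higher, 1284 had at most 3 reads over the 3 control libraries together. The text therefore rests mainly on well-counted genes, those with a mean of at least 10 CPM over the 6 libraries. Some genes below that level are given with their values, and list counts are over all tested members unless stated. Of the 8719 well-counted genes, 1510 (17.3%) were called higher and 1130 (13%) lower, and their median log2 fold change was 0.05, against 0.40 over all tested genes. The mean can come from the treated libraries alone, and 9 of the 1510 had at most 3 reads over the control libraries. CPM values of the groups did not overlap for 47.1% of the well-counted genes. A fit on the 6 TFR libraries alone also called 1029 of the 1510 and 848 of the 1130, and a fit without treated TFR 1 called 1327 and 767 of them. Refitted on the well-counted genes alone, the split was 1552 higher to 1581 lower, so an excess of genes called higher was not seen there.

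**Figure D1:**
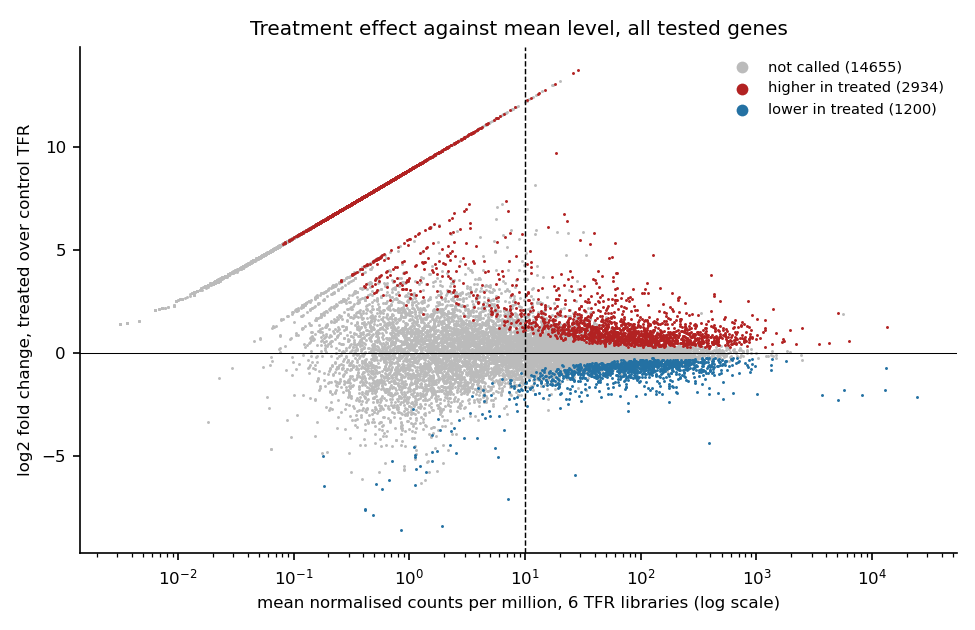
Each point is one of the 18789 tested genes, placed by its mean CPM over the 6 TFR libraries (log axis) and its log2 fold change, treated over control TFR. Of the called genes, 2934 lie above 0 and 1200 below it. The dashed line marks 10 CPM, and the straight diagonal bands on the left are genes with no or few reads in the control libraries, whose fitted fold change depends on the prior count.

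The regulatory program was partly higher in treated TFR cells. Of 35 genes of the TFR and Treg program, 15 (42.9%) were called higher and 5 (14.3%) lower, with a median log2 fold change of 0.46. Over all tested genes the shares were 15.6% and 6.39%. The list also moved in other subsets: 12 were called higher and 5 lower in Tconv cells, with a larger median of 0.56. In Treg cells the counts were 7 and 5 (median 0.12), and in TFH cells 11 and 10 (median 0.08). Foxp3 (ENSMUSG00000039521.12, chromosome X, 7573644 to 7595245, mm10), the master regulator of regulatory cells, stood at 499, 587 and 598 CPM in treated and at 322, 342 and 398 CPM in control libraries. Every treated library was above every control library, the log2 fold change was 0.67 ± 0.18 (edgeR adjusted p = 0.0124), and its exons overlap those of Ccdc22 and Ppp1r3f on the other strand, so its reads are uncertain. Il2ra (ENSMUSG00000026770.5, chromosome 2, 11642807 to 11693193), the high-affinity interleukin 2 receptor chain CD25 and also a Notch target, stood at 176, 191 and 197 CPM against 68.3, 62.6 and 69.4 CPM. It rose 2.81-fold (log2 fold change 1.49 ± 0.17, adjusted p = 2.62e-06) without overlap. Lag3, a co-inhibitory receptor of activated and regulatory cells, stood at 104, 122 and 127 CPM against 23.1, 23.5 and 30.3 CPM and rose 4.60-fold (adjusted p = 1.34e-07).

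Other members of the program moved the same way. Izumo1r, which encodes folate receptor 4, was at 201 ± 15.7 against 74.2 ± 2.90 CPM (log2 fold change 1.44 ± 0.16). Prdm1, the gene of BLIMP1, was at 159 ± 9.23 against 67.9 ± 19.2 CPM (log2 fold change 1.22 ± 0.23, adjusted p = 0.000718). Il10, the anti-inflammatory cytokine, stood at 193, 216 and 224 CPM against 96.5, 105 and 165 CPM (adjusted p = 0.0153). That call was lost when treated TFR 3, control TFR 1 or control TFR 2 was left out, with adjusted p from 0.0507 to 0.0714.

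Some regulatory genes showed no call or fell. Ikzf2, which encodes HELIOS, stood at 904, 1039 and 1006 CPM in treated and 1005, 1004 and 990 CPM in control libraries, with overlapping groups and a log2 fold change of -0.02 ± 0.11 (adjusted p = 0.897). Ctla4, the inhibitory receptor of B7 ligands, had a log2 fold change of 0.09 ± 0.09, Ikzf4 of -0.19 ± 0.18 and Tnfrsf18, the gene of the sorting marker GITR, of 0.30 ± 0.14, none of them called. Nt5e (ENSMUSG00000032420.8, chromosome 9, 88327197 to 88372092), the ectoenzyme CD73 that makes adenosine, stood at 82.5, 94.5 and 85.3 CPM in treated and 278, 275 and 236 CPM in control libraries. It fell without overlap (log2 fold change -1.59 ± 0.11, adjusted p = 1.54e-09), and control levels were 3.01 times the treated ones. Bach2, a repressor that holds T cells in a resting state, stood at 23.8, 28.1 and 24.3 CPM against 119, 121 and 82.6 CPM and also fell (log2 fold change -2.09 ± 0.15, adjusted p = 2.36e-09).

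Of 30 genes of the TFH program, 8 (26.7%) were called lower and 4 (13.3%) higher, against 6.39% and 15.6% of all tested genes. Without treated TFR 1 the counts were 6 and 2, and without the 5 libraries of the series that hold kidney transcripts 5 were called lower. Bcl6 (ENSMUSG00000022508.5, chromosome 16, 23965052 to 23988852), the transcription factor of follicular T cells, stood at 52.1, 54.6 and 57.5 CPM in treated and at 130, 134 and 159 CPM in control libraries. It fell without overlap (log2 fold change -1.36 ± 0.12, edgeR adjusted p = 4.24e-08), with an antisense gene, Gm37419, overlapping its exons. Pdcd1, which encodes the sorting marker PD1, stood at 126, 151 and 149 CPM against 319, 414 and 373 CPM and fell (log2 fold change -1.38 ± 0.16, adjusted p = 1.80e-06). Icos, a costimulatory receptor of follicular cells, was at 553 ± 44.0 against 776 ± 47.4 CPM (log2 fold change -0.49 ± 0.11), and Il6ra, the interleukin 6 receptor, at 43.1 ± 4.51 against 85.6 ± 0.746 CPM (log2 fold change -0.99 ± 0.12).

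Cxcr5 and Batf rose. Cxcr5, the receptor that brings cells to the follicle, stood at 126, 136 and 146 CPM against 49.5, 68.8 and 42.6 CPM (log2 fold change 1.34 ± 0.23, adjusted p = 0.000235), with exons that overlap Bcl9l on the other strand. Mean Cxcr5 was also higher in treated than in control libraries of Treg (40.9 against 16.3 CPM), TFH (261 against 121 CPM) and Tconv cells (15.6 against 1.83 CPM). Batf, an AP-1 family factor of TFH and effector Treg cells, stood at 140, 168 and 183 CPM against 50, 59.7 and 54.6 CPM and rose 2.98-fold (adjusted p = 5.38e-08). Il21, the main helper cytokine of TFH cells, stood at 24, 26.4 and 25.3 CPM against 23.8, 20.4 and 49.8 CPM, with overlapping groups and no call. In bulk libraries such as these, fewer cells of a type and less RNA per cell cannot be told apart.

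**Figure D2:**
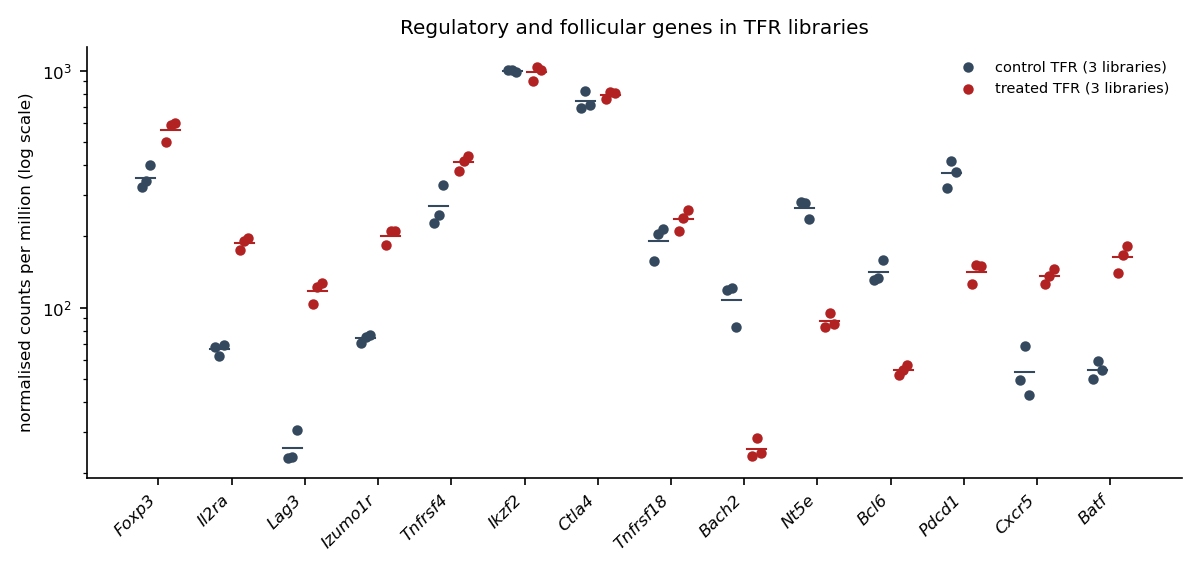
Each point is the CPM of a gene in one library (log axis), control TFR in dark blue and treated TFR in red, and bars mark the mean of 3 libraries. Il2ra, Lag3, Izumo1r, Cxcr5 and Batf lie higher and Bach2, Nt5e, Bcl6 and Pdcd1 lower in all 3 treated libraries, while the groups overlap for Ikzf2, Ctla4 and Tnfrsf18.

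The cells' own transcript of the OX40 receptor rose, and that of its ligand fell. Tnfrsf4 (ENSMUSG00000029075.6, chromosome 4, 156013843 to 156016612), the gene of OX40, stood at 377, 417 and 437 CPM in treated and at 227, 245 and 329 CPM in control libraries. The groups did not overlap and the log2 fold change was 0.62 ± 0.13 (adjusted p = 0.00194). Tnfsf4, the cells' own OX40L transcript, stood at 12.9, 12.2 and 12.5 CPM against 53.9, 34.1 and 28.2 CPM and fell (log2 fold change -1.63 ± 0.38, adjusted p = 0.00438).

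Of 29 genes of the OX40 and NF-kB list, which includes Tnfrsf4 and Tnfsf4 themselves, 7 were called higher (24.1%) and 2 lower (6.90%). All 29 had at least 10 CPM, where 17.3% and 13% of all genes were called, so neither share stands far from the background, and the list's median log2 fold change was 0.11. In Tconv and TFH cells 8 and 7 of the 29 were called higher. Beside Tnfrsf4 and Birc2, the 5 others that rose, Nfkbia, Nfkbie, Nfkbiz, Nfkbid and Tnfaip3, encode IkB family proteins and A20, which regulate NF-kB. Nfkbia, the inhibitor IkB-alpha, stood at 1768, 2038 and 2065 CPM against 1340, 1420 and 1367 CPM (log2 fold change 0.51 ± 0.08, adjusted p = 0.000123). Tnfaip3, which encodes the ubiquitin-editing enzyme A20, was at 4992 ± 398 against 3532 ± 267 CPM (log2 fold change 0.50 ± 0.09, adjusted p = 0.000374), a call that limma voom did not make (adjusted p = 0.118). Nfkbid, a nuclear IkB protein, stood at 67.7, 69.0 and 76.3 CPM against 40, 30.3 and 26.3 CPM (log2 fold change 1.13 ± 0.21). The subunit genes Nfkb1 and Nfkb2 had log2 fold changes of -0.09 ± 0.11 and 0.00 ± 0.12, and neither was called. Map3k14, the kinase NIK of the noncanonical arm, stood at 36.0, 40.8 and 44.0 CPM against 114, 94.2 and 98.5 CPM and fell (log2 fold change -1.34 ± 0.12, adjusted p = 9.97e-08). Reads of Map3k14 are uncertain because 1700028N14Rik overlaps its exons on the same strand, as are those of Nfkb2, which overlaps Psd on the other strand.

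Among 31 tested genes of Notch signalling, 10 were called higher and 4 lower. Only 21 of the 31 reached 10 CPM, and of these 6 (28.6%) were called higher and 4 (19.05%) lower. Over all genes at that level the shares were 17.3% and 13%. Without the 5 libraries that hold kidney transcripts, 2 of the list were called lower. Notch1 and Notch2, the receptors above 10 CPM, moved in opposite directions. Notch1 stood at 360, 382 and 383 CPM in treated and 236, 220 and 145 CPM in control libraries (log2 fold change 0.90 ± 0.14, adjusted p = 6.68e-05), with the antisense genes 0610009E02Rik and Gm13568 over its exons. Notch2 stood at 127, 142 and 137 CPM against 266, 177 and 217 CPM (log2 fold change -0.70 ± 0.13, adjusted p = 0.000425). Rbpj, the DNA-binding partner of cleaved Notch, was at 74.6 ± 5.22 against 105 ± 14 CPM (log2 fold change -0.49 ± 0.11, adjusted p = 0.00257). The Rbpj call was not made by limma voom (adjusted p = 0.0548) or without the 5 libraries that hold kidney transcripts (adjusted p = 0.0734).

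Targets of Notch differed in how well they could be counted. Dtx1 (ENSMUSG00000029603.15, chromosome 5, 120680202 to 120711927), which encodes Deltex1 and is a Notch target in lymphocytes, stood at 95.2, 121 and 133 CPM in treated and 19.1, 0 and 3.98 CPM in control libraries (log2 fold change 3.86 ± 0.65, adjusted p = 0.000325). Its treated values lay far above the control values, which themselves were scattered. Myc, a growth regulator and Notch target, was at 144 ± 15 against 79.0 ± 12.4 CPM (log2 fold change 0.87 ± 0.14, adjusted p = 0.000114). Hes1, the classical Notch target, had 4.71, 0.630 and 0.743 CPM in treated libraries and no read in any control library, which puts treated cells at least 16.8-fold higher than a floor of 3 reads over the control group, and at least 5.67-fold without treated TFR 1. The highest Hes1 value was that of treated TFR 1, and without that library the call was lost (adjusted p = 0.128). Jag1 itself stood at 10.1, 2.23 and 3.19 CPM against 0, 7.08 and 8.53 CPM and was not called.

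Transcripts of cytotoxic granules and of inflammatory chemokines were among the largest increases. Of 35 tested cytokine and granule genes, 17 (48.6%) were called higher and 2 (5.71%) lower, against 15.6% and 6.39% of all tested genes. In Tconv, Treg and TFH cells 12, 10 and 15 of the list were called higher. Of the 22 members with at least 10 CPM, 2 had no read in the control libraries. That level is a mean over both groups, so a member can reach it through the treated libraries alone. The median log2 fold change of the 22 was 1.10, also with unread genes set at their lower bound, and is no measure of a rise of the list. Gzmb (ENSMUSG00000015437.4, chromosome 14, 56258838 to 56262260), granzyme B, stood at 67.7, 80.5 and 85.6 CPM in treated and at 0.194, 3.49 and 0.379 CPM in control libraries (log2 fold change 5.80 ± 0.71, adjusted p = 4.11e-05). Gzmk, granzyme K, stood at 105, 122 and 126 CPM against 2.71, 1.63 and 4.74 CPM (log2 fold change 5.34 ± 0.41, adjusted p = 2.26e-08). For both granzymes the lowest treated library was far above the highest control library. Ccl5, a chemokine of memory and effector T cells, stood at 235, 249 and 253 CPM against 7.94, 13 and 6.25 CPM and rose 26.7-fold (adjusted p = 5.51e-12).

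The granule protein gene Nkg7 and the chemokine gene Ccl4 had no read in any control TFR library. Nkg7 was at 57.6 ± 1.72 CPM in treated libraries, at least 476-fold higher than the floor of 3 reads over the control group, which corresponds to 0.121 CPM. Ccl4 was at 52.4 ± 0.598 CPM, at least 433-fold higher than the same floor. Ccl3 stood at 64.7, 74.5 and 73.8 CPM against 0, 0 and 6.06 CPM (adjusted p = 0.00260). Eomes, a transcription factor of cytotoxic and memory T cells, stood at 182, 217 and 227 CPM against 33.6, 16.7 and 8.34 CPM and rose 10.4-fold (adjusted p = 3.12e-08). Prf1, perforin, was at 31.8 ± 3.76 against 2.32 ± 4.03 CPM (adjusted p = 0.0134), and this call was lost in the fit on the 6 TFR libraries (adjusted p = 0.126).

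These genes are also expressed by CD8 T and NK cells, and several of them are members of the marker list of those cells. The list summed to 288, 337 and 346 CPM in treated and 41.1, 27.8 and 21 CPM in control libraries. Of 9 tested members, 5 (55.6%, against 15.6% of all tested genes), Nkg7, Eomes and Prf1 among them, were called higher (3 of 7 in the 6-library fit). The same list had 2, 2 and 5 members called higher in Tconv, Treg and TFH cells. Cd8a was at 0 in all 6 libraries, and the NK receptor gene Klrb1c was at 1.60 to 2.06 CPM in treated libraries and at most 0.0968 CPM in control libraries. Without Nkg7, Eomes and Prf1, the sum was 22.5, 27.6 and 26.2 CPM in treated and 0.484, 11.1 and 12.7 CPM in control libraries. The part of such cells in these increases was not tested.

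Of the co-inhibitory receptors, 6 of 19 (31.6%) were called higher and 2 (10.5%) lower. Of the 14 with at least 10 CPM, 4 (28.6%) were called higher and 2 (14.3%) lower, against 17.3% and 13% of all such genes. Vsir, the gene of VISTA, was at 171 ± 10.8 against 83.5 ± 5.84 CPM (log2 fold change 1.03 ± 0.10, adjusted p = 1.49e-07). Tigit, which competes with costimulation through CD226, stood at 282, 290 and 286 CPM against 383, 543 and 587 CPM and fell (log2 fold change -0.82 ± 0.13), as did Pdcd1. Tnfsf8 (ENSMUSG00000028362.2, chromosome 4, 63831308 to 63861347), the CD30 ligand, stood at 119, 132 and 132 CPM against 522, 494 and 429 CPM and fell to the largest extent of the cytokine genes called lower (log2 fold change -1.92 ± 0.11, adjusted p = 8.12e-11).

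Cytokine receptor and STAT genes split, with 11 of 36 (30.6%) called higher and 9 (25%) lower, against 15.6% and 6.39% of all tested genes. Il21r, the receptor of interleukin 21, was at 201 ± 14.6 against 71.3 ± 13.8 CPM (log2 fold change 1.49 ± 0.15), and Il27ra at 155 ± 13.8 against 48.7 ± 15.8 CPM (log2 fold change 1.67 ± 0.15), the latter with an antisense neighbour, Palm3. Jak2, a kinase of cytokine receptors, stood at 433, 502 and 482 CPM against 967, 934 and 885 CPM (log2 fold change -0.98 ± 0.09, adjusted p = 6.64e-08). Stat5b, which carries interleukin 2 signals, stood at 281, 325 and 328 CPM against 658, 601 and 637 CPM (log2 fold change -1.02 ± 0.10, adjusted p = 2.29e-07).

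Chaperone genes of the heat shock response rose together. Of 26 genes, 21 (80.8%, against 15.6% of all tested genes) were called higher and none lower, with a median log2 fold change of 0.95. The rise was also seen in the other subsets, with 18, 14 and 17 of the list called higher in Tconv, Treg and TFH cells. Hspa1b (ENSMUSG00000090877.3, chromosome 17, 34956436 to 34959238), the inducible HSP70, stood at 635, 775 and 843 CPM in treated and 123, 91.6 and 113 CPM in control libraries (log2 fold change 2.78 ± 0.12, edgeR adjusted p = 1.84e-12). Its coding sequence is nearly identical to that of Hspa1a, so reads can be divided between the copies in ways the counting does not show. Hspa8, the constitutive HSC70, stood at 2142, 2321 and 2319 CPM against 571, 490 and 482 CPM and rose 4.40-fold (adjusted p = 9.34e-13). Hsp90aa1 and Hsp90ab1, both HSP90 chaperones, had log2 fold changes of 1.63 ± 0.09 and 1.60 ± 0.10. Hspd1, the mitochondrial HSP60, named for its promoter after its values were seen, stood at 402, 462 and 448 CPM against 126, 102 and 121 CPM (log2 fold change 1.91 ± 0.12).

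The promoters of these genes are known for heat shock elements, inverted repeats of the letters GAA and TTC. In the 250 bases before the start given by RefSeq (GRCm38.p6), the core GAANNTTC was searched on both strands, which are the same for this palindrome. It was found in the promoters of 8 of the 21 list members that had a promoter entry (38.1%) and in 2088 of 27025 genes overall (7.73%). The promoters of Hspa1b (chr17:34959239-34959488, minus strand) and Hspd1 (chr1:55087933-55088182, minus strand) are shown 5′ to 3′ as 2 strongly changed members that hold a match, with the match in capitals. It lies at -104 to -97 and at -139 to -132 from the start, and a match is a description of the letters only.
Hspa1b: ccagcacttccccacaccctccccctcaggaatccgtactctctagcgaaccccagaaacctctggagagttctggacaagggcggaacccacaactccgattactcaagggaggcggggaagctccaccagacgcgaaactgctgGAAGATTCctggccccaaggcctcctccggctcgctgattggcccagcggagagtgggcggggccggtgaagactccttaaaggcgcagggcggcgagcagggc
Hspd1: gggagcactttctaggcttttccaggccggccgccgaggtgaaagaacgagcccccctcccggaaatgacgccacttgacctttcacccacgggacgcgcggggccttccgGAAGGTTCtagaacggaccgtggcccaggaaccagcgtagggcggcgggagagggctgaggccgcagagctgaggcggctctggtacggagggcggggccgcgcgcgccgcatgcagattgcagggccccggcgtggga

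Immediate early genes, which respond fast to receptor signals and also to cell handling, were called higher for 22 of 35 (62.9%) and lower for 3 (8.57%). Over all tested genes the shares were 15.6% and 6.39%. Their median log2 fold change was 0.82 in TFR, 1.21 in Tconv, 0.51 in Treg and 1.19 in TFH cells. In Tconv, Treg and TFH cells 27, 17 and 26 of them were called higher. Fos, a subunit of AP-1, stood at 741, 844 and 869 CPM in treated and 199, 116 and 108 CPM in control libraries (log2 fold change 2.53 ± 0.15, adjusted p = 2.37e-10). Zfp36, an RNA-binding protein that shortens the life of cytokine mRNAs, was at 628 ± 56.7 against 204 ± 35.8 CPM (log2 fold change 1.62 ± 0.14). Csrnp1, a nuclear protein induced by early signals, was at 513 ± 59.3 against 225 ± 15 CPM (log2 fold change 1.19 ± 0.11). Ppp1r15a, which restores translation after stress, was at 1187 ± 120 against 485 ± 14.4 CPM (log2 fold change 1.29 ± 0.09), with antisense exons of Tulp2. Chaperones of the endoplasmic reticulum also rose, with 14 of 24 genes called higher and 1 lower. Calr, calreticulin, stood at 870, 947 and 963 CPM against 361, 341 and 325 CPM (log2 fold change 1.44 ± 0.07, adjusted p = 5.51e-12), and Hspa5, the sensor chaperone BiP, rose 2.05-fold.

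Genes of energy metabolism moved by the place where they are encoded. All 11 of the called mitochondrially encoded mRNAs, of 13 tested, were lower in treated cells, and 21 of 40 nuclear-encoded subunits of the respiratory chain were called higher and none lower. mt-Co1 (ENSMUSG00000064351.1), the core subunit of cytochrome oxidase, stood at 8553, 9176 and 9244 CPM in treated and 37866, 42369 and 39651 CPM in control libraries (log2 fold change -2.15 ± 0.12, adjusted p = 4.72e-11). mt-Cytb, the cytochrome b of complex III, was at 5824 ± 362 against 20211 ± 1198 CPM (log2 fold change -1.79 ± 0.09). mt-Nd4 and mt-Nd5, subunits of complex I, had log2 fold changes of -2.30 ± 0.10 and -2.05 ± 0.10, with mt-Nd4l on the same strand and mt-Nd6 on the other strand overlapping them. Atp5b, the catalytic subunit of the ATP synthase, was at 693 ± 26.1 against 383 ± 9.35 CPM (log2 fold change 0.86 ± 0.06, adjusted p = 3.22e-09), and Atp5c1 had a log2 fold change of 1.12 ± 0.09. Without the 5 libraries that hold kidney transcripts, 12 of the 40 nuclear-encoded genes were called higher.

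Glycolysis genes were called higher for 16 of 21 and lower for none, with a median log2 fold change of 1.0. Ldha, lactate dehydrogenase A, stood at 765, 843 and 870 CPM in treated and 242, 238 and 257 CPM in control libraries (log2 fold change 1.75 ± 0.11, adjusted p = 5.92e-10). Pkm, pyruvate kinase, was at 1215 ± 133 against 510 ± 78.0 CPM (log2 fold change 1.25 ± 0.11). Gapdh and Aldoa rose 2.51-fold and 1.92-fold, and both share exon sequence with antisense neighbours (Iffo1 and Fam57b). Genes of cytosolic ribosomal proteins rose almost throughout: 44 of 47 were called higher and none lower, with a median log2 fold change of 0.72 and of 0.65 with relative log expression factors. Rpl37 stood at 594, 574 and 693 CPM against 200, 282 and 246 CPM (log2 fold change 1.35 ± 0.11), and Rpl3 was at 1163 ± 68.3 against 608 ± 39.7 CPM (log2 fold change 0.93 ± 0.09). Ribosomal protein genes have many processed pseudogenes, so some of their reads may be assigned elsewhere.

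Proteasome subunits were called higher for 14 of 31 and lower for none, with a median log2 fold change of 0.42, among them Psme2 of the immune-inducible activator, at 143 ± 4.83 against 74.5 ± 26.9 CPM. For cholesterol synthesis and uptake, 6 of 22 (27.3%, against 15.6% of all tested genes) were called higher and none lower, with a median of 0.81. The synthetic enzyme gene Cyp51 was at 80.6 ± 4.75 against 29.6 ± 3.96 CPM (log2 fold change 1.44 ± 0.16), with Akap9 on the other strand, and the exporter gene Abcg1 at 101 ± 7.75 against 34.0 ± 8.55 CPM (log2 fold change 1.55 ± 0.18).

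**Figure D3:**
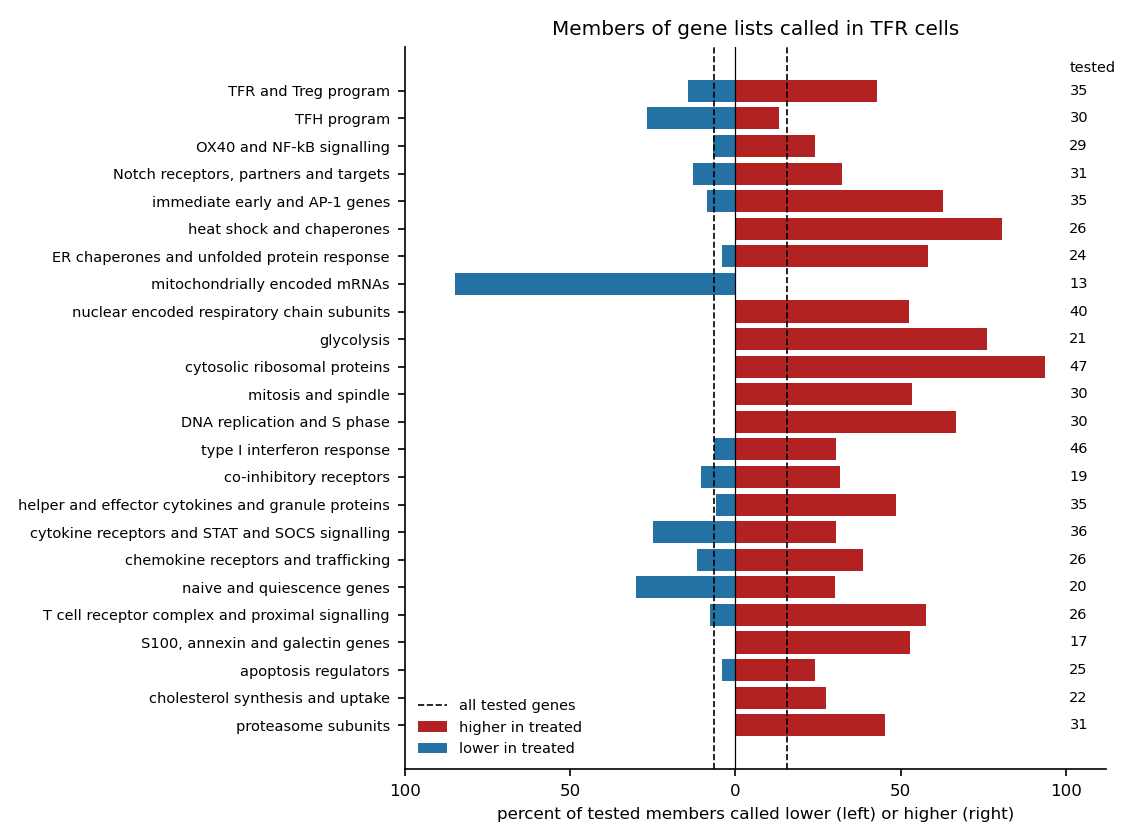
Bars give the percent of tested members of each list of cell function (markers of other cell types left out) that were called higher (right, red) or lower (left, blue) in treated TFR cells, with the number tested at the right. The dashed lines mark 15.6% and 6.39%, the shares over all 18789 tested genes. Ribosomal protein, heat shock and glycolysis genes reach furthest to the right, and mitochondrially encoded mRNAs are called only to the left.

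Genes of the cell cycle rose in both of its main phases. Of 30 genes of mitosis and the spindle, 16 were called higher, and of 30 genes of DNA replication, 20, with none called lower in either list and medians of 1.55 and 1.36 on the log2 scale. Mki67, the proliferation marker Ki-67, stood at 1032, 1152 and 1163 CPM in treated and 495, 265 and 420 CPM in control libraries (log2 fold change 1.5 ± 0.31, adjusted p = 0.00154). Top2a, the topoisomerase of dividing cells, stood at 451, 531 and 490 CPM against 180, 169 and 185 CPM (log2 fold change 1.46 ± 0.09, adjusted p = 2.47e-10). Cdc20, an activator of the anaphase-promoting complex, was at 53.1 ± 6.5 against 17.6 ± 1.21 CPM, with Elovl1 on the other strand. Kif23, a kinesin of cytokinesis, was at 100 ± 4.37 against 55.5 ± 7.0 CPM (log2 fold change 0.85 ± 0.14).

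Genes of the replicative helicase and of the sliding clamp were among the S phase genes that rose. Pcna, the sliding clamp, stood at 406, 440 and 441 CPM against 196, 157 and 132 CPM (log2 fold change 1.41 ± 0.11, adjusted p = 1.03e-08). Mcm5 (ENSMUSG00000005410.6, chromosome 8, 75109569 to 75128439) stood at 229, 283 and 280 CPM against 110, 68.8 and 67.6 CPM (log2 fold change 1.68 ± 0.16, adjusted p = 1.71e-07). Mcm3 and Mcm2, of the same ring, had log2 fold changes of 1.31 ± 0.12 and 1.59 ± 0.18. Mcm6, chosen for its promoter after its values were seen, stood at 391, 468 and 448 CPM against 342, 373 and 314 CPM, a small rise at the edge of the threshold (log2 fold change 0.34 ± 0.12, adjusted p = 0.0488) that most alternatives did not call, with adjusted p up to 0.152.

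Promoters of S phase genes are known targets of E2F factors. The E2F sequence TTTGGCGC, searched on both strands of the same 250 bases, was found for 3 of 24 replication genes with a promoter entry (12.5%), Mcm5, Mcm6 and Pola1, and for 131 of 27025 genes overall (0.485%). The promoters of Mcm5 (chr8:75109259-75109508, plus strand) and Mcm6 (chr1:128359706-128359955, minus strand) are shown 5′ to 3′ because the 2 genes belong to 1 complex and hold the match, in capitals, yet rose to different extents. The Mcm5 match is on the opposite strand, at -149 to -142, and those of Mcm6 are at -110 to -103 and at -47 to -40.
Mcm5: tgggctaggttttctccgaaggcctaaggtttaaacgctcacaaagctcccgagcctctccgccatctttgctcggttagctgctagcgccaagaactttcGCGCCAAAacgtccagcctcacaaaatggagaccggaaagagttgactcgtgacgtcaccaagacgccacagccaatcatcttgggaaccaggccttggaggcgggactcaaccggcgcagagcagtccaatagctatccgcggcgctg
Mcm6: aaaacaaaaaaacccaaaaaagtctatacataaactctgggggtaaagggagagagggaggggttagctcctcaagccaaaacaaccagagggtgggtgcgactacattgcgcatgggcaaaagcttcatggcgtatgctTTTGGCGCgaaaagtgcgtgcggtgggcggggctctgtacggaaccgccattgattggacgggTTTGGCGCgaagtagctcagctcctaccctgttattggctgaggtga

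Among the largest increases were 3 replication-dependent histone genes, named by the rule on fold size, so they say nothing of the family as a whole. Hist1h2ag stood at 37.9, 40.7 and 50.3 CPM in treated and 0, 0.545 and 0.758 CPM in control libraries. Hist1h4f stood at 110, 81.7 and 118 CPM against 5.04, 7.19 and 0 CPM, and Hist1h4b at 62.3, 49.5 and 64.2 CPM against 2.42, 1.31 and 0 CPM. Their adjusted p were 0.000355, 0.000130 and 4.98e-06. Histone genes are near-identical copies of each other, so the division of reads among them is uncertain.

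Interferon response genes were more often called higher than lower. Of 46 tested, 14 were called higher and 3 lower (1 without treated TFR 1), and of the 36 with at least 10 CPM, 10 (27.8%, against 17.3% of all such genes) and 3, with a median log2 fold change of 0.29. In the same list, the fit on the 6 TFR libraries called 7 higher and 2 lower. Ly6a, the interferon-inducible surface antigen Sca-1, stood at 72.2, 76.5 and 74.9 CPM against 11.7, 11.9 and 5.31 CPM and rose 7.61-fold (adjusted p = 1.85e-07). Ly6e was at 431 ± 20.4 against 169 ± 25.2 CPM (log2 fold change 1.35 ± 0.18). Ifit1, an antiviral RNA-binding protein, stood at 53.2, 63.0 and 59.5 CPM against 10.8, 5.88 and 31.8 CPM, called in the 24-library fit (adjusted p = 0.000648) and not in the 6-library fit (adjusted p = 0.0660). Samd9l, an antiviral restriction factor, stood at 118, 126 and 115 CPM against 224, 212 and 176 CPM and fell (log2 fold change -0.77 ± 0.12, adjusted p = 8.53e-05).

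Genes of trafficking and of the resting state were mixed. Among 26 trafficking genes, 10 (38.5%) were called higher and 3 (11.5%) lower, against 15.6% and 6.39% of all tested genes. Selplg, the ligand of P-selectin, was at 245 ± 28.5 against 83.7 ± 12.7 CPM (log2 fold change 1.54 ± 0.16) and the integrin gene Itgal at 716 ± 69.8 against 457 ± 37.0 CPM (log2 fold change 0.65 ± 0.10). Ccr2, the receptor of inflammatory chemokines, stood at 99.7, 105 and 104 CPM against 28.0, 10.5 and 13.5 CPM (adjusted p = 0.00212). Ccr7, which holds T cells in the T zone, stood at 137, 155 and 162 CPM against 242, 249 and 295 CPM and fell (log2 fold change -0.79 ± 0.11, adjusted p = 1.26e-05). Of 20 naive and quiescence genes, 6 (30%) were called higher and 6 (30%) lower, against the same shares. Foxp1, a guardian of naive T cell quiescence, was at 141 ± 11.9 against 353 ± 22 CPM (log2 fold change -1.32 ± 0.10, adjusted p = 2.87e-09), with Gm20696 over its exons on the same strand. Klf2, a factor of quiescence and egress, was at 117 ± 6.58 against 44.3 ± 9.55 CPM (log2 fold change 1.39 ± 0.13).

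The T cell receptor complex and its signalling genes were called higher for 15 of 26 (57.7%) and lower for 2 (7.69%), against 15.6% and 6.39% of all tested genes. The same list had 24, 12 and 14 members called higher in Tconv, Treg and TFH cells. Thy1, the pan-T cell antigen, stood at 260, 303 and 338 CPM against 72.0, 60.9 and 76.6 CPM and rose 4.31-fold (adjusted p = 1.45e-10). Cd3g and Trac, parts of the receptor complex, had log2 fold changes of 0.79 ± 0.12 and 0.76 ± 0.12. Themis, an adaptor of receptor signalling, had a log2 fold change of 1.06 ± 0.14, with an antisense gene over its exons. Of 17 S100, annexin and galectin genes, 9 (52.9%) were called higher and none lower, and Anxa6, Vim, S100a10 and Lgals1 had log2 fold changes of 1.42 ± 0.12, 1.63 ± 0.14, 1.08 ± 0.10 and 1.65 ± 0.28. Of 25 tested apoptosis regulators, 6 (24%) were called higher and 1 (4%) lower, not far from the 15.6% and 6.39% of all tested genes. In the 6-library fit the counts were 3 and 0.

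Among genes with a mean of at least 20 CPM, the largest decreases included mt-Nd4 and mt-Co1 and several genes outside the lists of cell function. Olig2 (ENSMUSG00000039830.8, chromosome 16, 91225457 to 91228677), a transcription factor known from oligodendrocytes, stood at 40.9, 53.6 and 63.9 CPM in control and 0.592, 0.821 and 1.21 CPM in treated libraries. Control levels were 60.2 times the treated ones (log2 fold change -5.91 ± 0.38, edgeR adjusted p = 6.27e-09). Tbc1d4 (ENSMUSG00000033083.16, chromosome 14, 101442360 to 101609191), a Rab GTPase-activating protein of glucose transporter traffic, stood at 816, 855 and 893 CPM in control and 171, 195 and 185 CPM in treated libraries (log2 fold change -2.22 ± 0.09, adjusted p = 6.94e-13). Ttc28 was at 292 ± 46.5 CPM in control and 56.8 ± 2.91 CPM in treated libraries, and Creb3l2, a transcription factor held in the endoplasmic reticulum membrane, at 137 ± 41.1 and 19.3 ± 3.84 CPM. Ypel4, Ppp2r3a and Dstyk had log2 fold changes of -2.34 ± 0.39, -2.11 ± 0.23 and -2.15 ± 0.25. Cd86, the costimulatory ligand, stood at 16.9, 41.9 and 59.7 CPM in control and 8.09, 8.67 and 8.06 CPM in treated libraries (adjusted p = 0.00932, and 0.0501 without the 5 libraries that hold kidney transcripts). The noncoding locus AY036118, whose exons overlap those of Gm42418 on the other strand, was at 692, 646 and 905 CPM in control and 50.2, 24.5 and 32.2 CPM in treated libraries.

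Beside the granule genes, the largest increases by the same rule included Gcg and Dscam, best known from tissues other than T cells. Gcg, which encodes glucagon, stood at 42.8, 45.8 and 49.5 CPM in treated and 1.45, 0 and 0 CPM in control libraries (adjusted p = 0.000174). Dscam, a cell adhesion gene of neurons, stood at 68.2, 87.7 and 87.7 CPM against 13.9, 0.871 and 0.189 CPM (adjusted p = 0.000300).

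The effect of treatment in TFR cells was compared with the mean effect in Tconv, Treg and TFH cells, each subset with control libraries of its own. The difference was positive for 939 genes (5.0%) and negative for 783 (4.17%) by edgeR. Tnfsf8 fell in TFR (log2 fold change -1.92), Treg (-0.92) and TFH cells (-1.17) and rose in Tconv cells (2.12), which gave a difference of -1.93 ± 0.13 (adjusted p = 2.15e-08). For Nt5e the effect was -1.59 in TFR and -1.22 in TFH cells, against -0.04 in Treg and 1.51 in Tconv cells (difference -1.67 ± 0.13, adjusted p = 1.26e-07). Both differences thus include an opposite effect in Tconv cells. Tbc1d4 had effects of -2.22 in TFR, -1.76 in Treg, -1.32 in TFH and -0.23 in Tconv cells (difference -1.12 ± 0.10).

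Genes of GITR, OX40 and the interleukin 2 receptor differed the other way. Tnfrsf18 had an effect of 0.30 in TFR cells, which was not called, and fell in Tconv (-1.15), Treg (-0.72) and TFH cells (-0.77), so that the difference of 1.18 ± 0.16 passed the test (adjusted p = 7.54e-05). GITR protein was part of the sort of every subset, and the part of the gate in this difference was not tested. Tnfrsf4 rose by 0.62 in TFR cells and had effects of 0.16 in Tconv, 0.11 in Treg and -0.60 in TFH cells (difference 0.73 ± 0.15, adjusted p = 0.00471). Il2ra had effects of 1.49 in TFR, 0.93 in Treg, -0.18 in Tconv and -0.40 in TFH cells (difference 1.37 ± 0.20, adjusted p = 0.000217). Ikzf2 was the reverse, with -0.02 in TFR and 0.02 in TFH cells against 0.89 in Treg and 1.46 in Tconv cells (difference -0.82 ± 0.13). For Foxp3 the difference of 0.22 did not pass (edgeR adjusted p = 0.653).

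Ribosomal protein genes held the largest share of positive differences among the lists of cell function, 39 of 47, against 5.0% of all tested genes. With limma voom 1 of the 47 passed, at a median difference of 0.46 in both fits, and without treated TFR 3 the count was 20. Their median effect was 0.72 in TFR, 0.53 in Tconv, -0.03 in Treg and 0.19 in TFH cells. Rpl14, for example, had effects of 1.05, 0.59, 0.30 and -0.05 in TFR, Tconv, Treg and TFH cells (difference 0.76 ± 0.12, adjusted p = 0.000485). Positive differences were also found for 11 of 24 endoplasmic reticulum chaperone genes, a count of 7 without treated TFR 2 or without the 5 libraries that hold kidney transcripts. For replication genes the count was 9 of 30, with 3 by limma voom, 3 without treated TFR 2 or treated TFR 3 and 5 without control TFR 3. Nuclear-encoded respiratory genes gave 7 of 40, with 2 by limma voom, 4 without treated TFR 2 or the 5 libraries and 3 without treated TFR 3, and glycolysis genes 6 of 21, with 2 by limma voom. In the TFH program 15 of 30 differences were negative and 1 was positive, with 7 negative without the 5 libraries. The median effect of that list was -0.14 in TFR, -0.02 in Treg, 0.41 in TFH and 0.55 in Tconv cells. In the same order, 4, 8, 10 and 16 members were called higher and 8, 5, 8 and 2 lower. Of 35 immediate early genes, 10 differences were negative and 3 positive, and the negative count was 6 without treated TFR 1, 3 without the 5 libraries and 1 by limma voom. Kif23 had effects of 0.85 in TFR, -1.33 in Tconv, -0.36 in Treg and -0.37 in TFH cells. Mcm5 had effects of 1.68 in TFR, -0.32 in Tconv, 0.62 in Treg and 1.04 in TFH cells. Mitosis genes as a list did not follow Kif23: 23 of 30 were called higher in Treg and 17 in TFH cells, against 16 in TFR cells, and the median difference was -0.26.

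**Figure D4:**
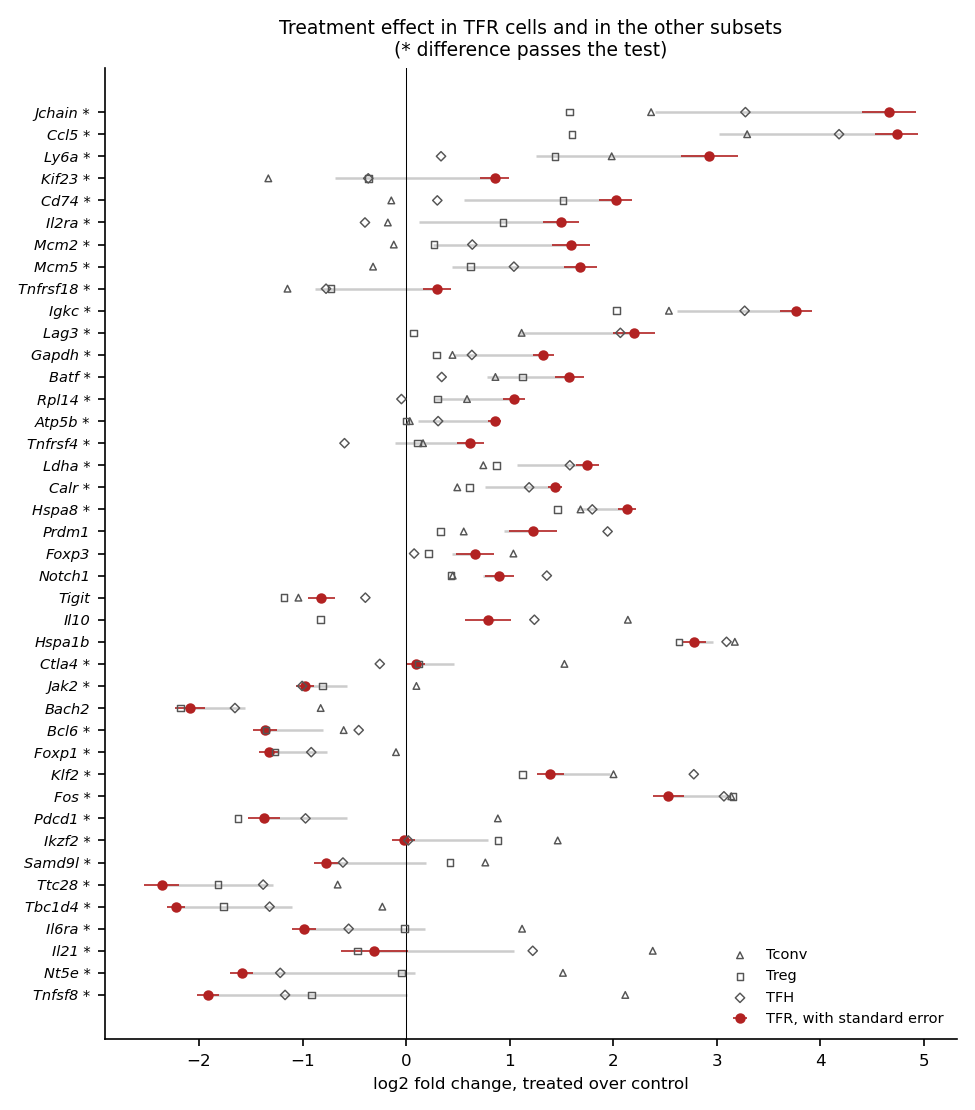
Red points give the log2 fold change of treatment in TFR cells with its standard error, open symbols that in Tconv (triangles), Treg (squares) and TFH cells (diamonds), and the grey line joins the TFR value to the mean of the other 3. Genes are ordered by that difference, from Jchain at the top to Tnfsf8 at the bottom, and an asterisk marks an adjusted p under 0.05 for it.

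Immunoglobulin and B lineage transcripts also moved with treatment. Plasma cell markers summed to 2451 to 2768 CPM in treated and 443 to 551 CPM in control libraries, and 10 of 13 tested members were called higher. Igkc, the kappa light chain constant region, stood at 706, 766 and 773 CPM against 51.9, 52.0 and 62.0 CPM (log2 fold change 3.76 ± 0.15, adjusted p = 1.62e-12). Jchain, which joins IgM and IgA subunits, stood at 104, 114 and 110 CPM against 2.81, 3.59 and 7.01 CPM (log2 fold change 4.67 ± 0.26), and Ighm at 1303, 1504 and 1518 CPM against 293, 257 and 211 CPM (log2 fold change 2.51 ± 0.11). Ighg1 was at 26.1 ± 3.70 CPM and had no read in the control libraries, at least 216-fold above their floor. Sdc1, which encodes the plasma cell marker CD138, was at 2.94 to 3.55 CPM in treated and 0 to 11.7 CPM in control libraries and was not called.

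B cell markers summed to 398 to 440 CPM in treated and 110 to 126 CPM in control libraries. Of the 19 tested, 4 (21.1%) were called higher, near the 15.6% of all tested genes. Most of that sum was Cd74, the invariant chain of class II molecules, which stood at 282, 311 and 326 CPM against 68.8, 71.9 and 85.8 CPM (log2 fold change 2.02 ± 0.16, adjusted p = 1.18e-08), and the markers Ms4a1 and Cd79a were at most at 1.84 CPM in any TFR library. Myeloid markers summed to 178 to 225 CPM against 69.0 to 78.8 CPM, with 3 of 14 (21.4%) called higher, also near that share. Without Ccr2, which T cells also express, that sum was 125, 73.0 and 77.9 CPM in treated and 50.8, 64.5 and 55.5 CPM in control libraries. Erythroid and platelet markers summed to 4.12 to 4.52 CPM against 11.8 to 34.7 CPM, with none called higher and 1 of 7 lower. Endothelial and stromal markers summed to 393 CPM in treated TFR 1 and to 105 to 134 CPM in the other libraries, and 2 of 13 were called, neither of them without treated TFR 1. The part of these transcripts in the other results was not tested.

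**Figure D5:**
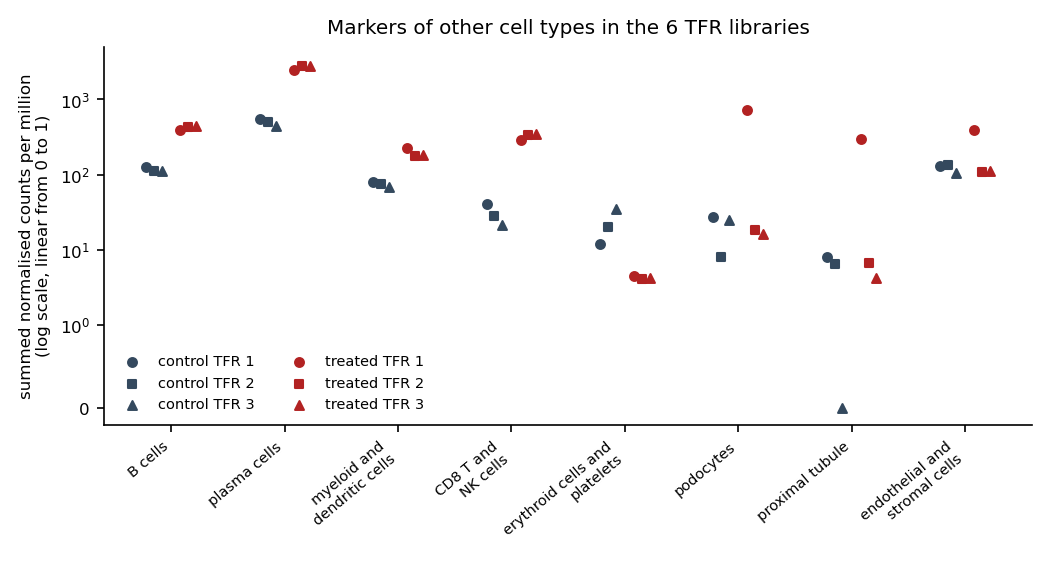
Each symbol is the summed CPM of a marker list in one library (log axis, linear from 0 to 1), control TFR in dark blue and treated TFR in red, with one symbol shape per library number. Plasma cell, B cell, myeloid, CD8 T and NK cell markers are higher in all 3 treated libraries, and kidney markers stand out in treated TFR 1 at 718 and 300 CPM.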

How the data were processed

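RNA of sorted cells was purified on RNeasy columns with DNase treatment and made into CORALL total RNA libraries after RiboCop ribosomal RNA depletion, per the labels' protocols. Reads were processed with STAR and featureCounts on mm10, per the submitters' processing notes, with no version, annotation or strand setting given. The deposited table holds whole-number read counts per gene for 24 libraries, made by the authors. Counts were tested with edgeR 4.0.16 (R 4.3.3): 1 quasi-likelihood fit over the 8 groups with TMM factors and edgeR's expression filter, with Benjamini-Hochberg adjustment over the 18789 genes kept. The difference between subsets was a contrast of that fit. Alternatives used relative log expression factors, other filters, DESeq2 1.42.0, limma 3.58.1 voom, the 6 TFR libraries alone, thinned counts and left-out libraries. Up to 12 genes per direction with the largest fold change at a mean of at least 20 CPM, called also without treated TFR 1 and with groups apart, up to 4 members per list by p at a mean of at least 10 CPM, and genes fixed by name were eligible to be named, and the text gives a selection. Gene coordinates are those of the mm10 annotation, and promoters come from RefSeq (GRCm38.p6). Members, lists and rules were chosen with earlier results of these data known.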

Additional observations from a re-analysis of the deposited data

Results flagged for a closer look

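For 62 of the 123 genes named, the treatment effect in TFR cells differed from the mean effect in Tconv, Treg and TFH cells by edgeR's quasi-likelihood test of that difference, 42 upwards and 20 downwards. Over all tested genes the shares were 5.0% upwards and 4.17% downwards. Many of the 123 were chosen from the same fit by fold size or small p, which favours such differences, so the count is no measure of an effect particular to TFR cells. Each value in parentheses is the difference in log2 fold change, TFR minus the mean of the other 3 subsets. Among regulatory, follicular and receptor genes the effect was higher in TFR cells for Il2ra (1.37), Tnfrsf18 (1.18), Lag3 (1.12), Batf (0.80), Tnfrsf4 (0.73), Il21r (0.99), Il27ra (0.63) and Ccr7 (0.41). It was lower for Tnfsf8 (-1.93), Nt5e (-1.67), Il21 (-1.35), Il6ra (-1.17), Cd86 (-2.15), Ikzf2 (-0.82), Pdcd1 (-0.81), Bcl6 (-0.56), Notch2 (-0.48), Jak2 (-0.41) and Ctla4 (-0.37). The falls of Bcl6 and Pdcd1 were not particular to TFR cells. From control to treated Treg libraries, mean Bcl6 went from 79.2 to 30.9 CPM and mean Pdcd1 from 222 to 72.0 CPM. In TFH libraries Bcl6 went from 208 to 151 CPM and Pdcd1 from 286 to 146 CPM. In Tconv libraries Bcl6 went from 52.0 to 34.2 CPM, while Pdcd1 went from 5.17 to 9.61 CPM. Further genes with a lower effect were Olig2 (-2.38), Dstyk (-1.42), Tbc1d4 (-1.12), Ttc28 (-1.08), Samd9l (-0.97), Fos (-0.59), Klf2 (-0.57), Foxp1 (-0.56) and Itgal (-0.43).

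In cell division the effect was higher for Kif23 (1.54), Mcm2 (1.33), Mcm5 (1.23), Cdc20 (1.04), Mcm3 (0.56), Pcna (0.50), Mcm6 (0.48), Hist1h2ag (5.15) and Hist1h4b (3.28). In metabolism and translation it was higher for Gapdh (0.87), Ldha (0.68), Pkm (0.66), Aldoa (0.46), Atp5b (0.74), Atp5c1 (0.56), mt-Cytb (0.40), mt-Nd5 (0.47), Abcg1 (0.92), Rpl14 (0.76), Rpl37 (0.62), Rps14 (0.54) and Rpl3 (0.36), where the mitochondrial mRNAs fell in all 4 subsets. Chaperone genes with a higher effect were Calr (0.67), Hspd1 (0.51), Hspa8 (0.49) and Hsp90ab1 (0.36). Immune genes with a higher effect were Ccl5 (1.71), Ly6a (1.67), Jchain (2.26), Cd74 (1.47), Igkc (1.15) and Ighm (0.46). The values of Ccl4 (9.27) and Nkg7 (9.16) rest on control TFR libraries with no read, so they depend on the prior count and are no bound. Groups of 3 libraries are too small for a test of single libraries that stand apart.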

How the results depend on the processing

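Control TFR libraries were shallow, so genes under 10 CPM are read with wide error, and the spread differed between groups. Of 115 called genes named in the text, 107 kept direction and call in all 16 alternatives (where each could be computed), and Cd86, Hes1, Ifit1, Il10, Mcm6, Prf1, Rbpj and Tnfaip3 lost the call in at least 1. Genes named by fold size had to be called without treated TFR 1, and list members were taken by small p. The choice thus favoured genes that keep their call, and 107 of 115 does not hold for called genes at large. Of the well-counted genes, the 6-library fit kept 1029 of 1510 calls higher and 848 of 1130 lower. The count of genes called went from 4134 to 2487 without the 5 libraries that hold kidney transcripts. Genes called higher went from 2934 to 1832 without those libraries, to 1923 with limma voom and to 1552 with a minimum of 10 CPM. Genes called lower went from 1200 to 655 without those 5 libraries and to 2029 with DESeq2, and lay between 796 (without treated TFR 1) and 1216 when 1 library was left out. Genes whose effect differed from the other subsets went from 1722 to 662 without the 5 libraries, to 799 with limma voom and to 3415 with DESeq2, and lay between 988 and 2011 with 1 library left out, at 1063, 1065 and 988 without treated TFR 1, 2 and 3. The causes were not tested.

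Replicate numbers did not pair the libraries: deviations of treated and control libraries correlated between -0.0541 and 0.0547, and not every library correlated best with its own number. With the replicate block 3797 genes were called, 2688 higher and 1109 lower, and 1447 differed from the other subsets; Hes1 (adjusted p = 0.0545) and Mcm6 (0.0619) lost the call by edgeR.

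Only genes that were not called changed sign. Ikzf2 had a log2 fold change of 0.0102 with limma voom and 0.0446 without the 5 libraries that hold kidney transcripts, and between -0.0595 and 0.0392 with 1 library left out. Nfkb1 had 0.0113 without the 5 libraries and between -0.153 and 0.0058 with 1 left out, and Il21 between -0.531 and 0.201. Nfkb2 had -0.0632 with relative log expression factors, -0.0240 with no filter, -0.0648 with a minimum of 10 CPM, -0.0645 with DESeq2, -0.0383 in the 6 TFR libraries, -0.0015 with the replicate block, -0.0262 with receptor, haemoglobin and mitochondrial genes left out of scaling, -0.0222 with thinned libraries, and between -0.0822 and 0.0914 with 1 left out. Jag1 had, in the same settings, -0.0393, -0.0160, no value at a minimum of 10 CPM, -0.0425, -0.0104, -0.0563, -0.0086 and -0.0939, then -0.919 without the 5 libraries, and between -0.923 and 0.559 with 1 left out.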
